A study of Homo sapiens with 15 samples.

Results

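The genes described here sense foreign RNA, carry the type I interferon signal or act as its transcription factors. They are the double-stranded RNA sensors IFIH1, TLR3 and EIF2AK2, the cytokine IFNB1, its receptor chain IFNAR1, and the factors STAT2, IRF9, IRF1 and IRF7, chosen by name as 9 members, and where a gene had several probe sets the one brightest on average was read. No probe set was named to STAT2 in the annotation used, so 8 members were measured among 11963 genes in all, and STAT2 was not analysed here. Levels come from Affymetrix arrays of MCF-10A, an established line of non-transformed human mammary epithelial cells, harvested 48 hours after infection with a retrovirus or an adenovirus. Which virus was used for which group is not given in the sources used here, and every group, controls included, was infected. Any difference between groups in virus or dose could not be told apart from the treatment and was not tested. In the overexpression arm, cells received ΔNp63α, a p63 isoform without the N-terminal transactivation domain, or TAp63γ, an isoform with it, or the overexpression vector control, with 3 arrays each. In the knockdown arm, cells received shDBD, a short hairpin RNA (shRNA) against the DNA-binding domain that all p63 isoforms share, or shTA, a hairpin against isoforms that carry the transactivation domain, or the shRNA vector control, with 2 arrays each. Replicates are called biological in the labels, which do not say if each had its own infection, so a p-value here reflects variation among these arrays, which may be technical.

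Type I interferon is made when sensors of foreign nucleic acid switch on interferon regulatory factors (IRFs) and NF-kB, which act on the interferon β gene. Secreted interferon binds a receptor of the chains IFNAR1 and IFNAR2, whose kinases JAK1 and TYK2 phosphorylate STAT proteins. STAT2 and IRF9 are parts of the complex ISGF3, which binds the interferon-stimulated response element, whereas other STAT dimers bind the gamma-activated site. Several sensors and IRFs are themselves interferon-stimulated, so that the pathway feeds back on its own components. In epithelial cells these genes serve as a first line of defence against viruses.

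RefSeq promoter windows (GRCh38.p14, 250 bases before to 50 after the annotated start) were found for 8 of 9 members, with 2 windows for IFNAR1 and no entry for IRF7. The 5 windows below belong to the members that rose with both p63 isoforms and have an entry, and are shown because each holds at least 1 of the response elements named above. Capitals mark matches, on either strand, to the core of the interferon-stimulated response element (GAAA, a pair of any bases, then GAAA), the gamma-activated site (TTCNNNGAA) or the NF-kB motif (GGG, a pair of any bases, then TTTCC). The windows are chr2:162318635-162318934 on the minus strand for IFIH1, chr4:186068906-186069205 on the plus strand for TLR3, chr2:37156931-37157230 on the minus strand for EIF2AK2, chr14:24161015-24161314 on the plus strand for IRF9 and chr5:132490724-132491023 on the minus strand for IRF1.
IFIH1: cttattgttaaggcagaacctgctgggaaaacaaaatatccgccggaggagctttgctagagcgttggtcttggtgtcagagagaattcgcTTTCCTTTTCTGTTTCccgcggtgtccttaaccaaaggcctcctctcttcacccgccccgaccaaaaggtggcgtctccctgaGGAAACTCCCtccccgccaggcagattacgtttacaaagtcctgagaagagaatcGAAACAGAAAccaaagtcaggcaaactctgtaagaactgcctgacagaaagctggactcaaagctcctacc
TLR3: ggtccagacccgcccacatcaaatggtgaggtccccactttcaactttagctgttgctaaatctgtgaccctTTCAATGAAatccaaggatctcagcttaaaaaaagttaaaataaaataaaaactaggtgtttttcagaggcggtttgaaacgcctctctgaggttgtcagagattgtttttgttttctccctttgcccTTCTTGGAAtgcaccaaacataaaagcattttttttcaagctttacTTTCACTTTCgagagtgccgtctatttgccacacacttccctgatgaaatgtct
EIF2AK2: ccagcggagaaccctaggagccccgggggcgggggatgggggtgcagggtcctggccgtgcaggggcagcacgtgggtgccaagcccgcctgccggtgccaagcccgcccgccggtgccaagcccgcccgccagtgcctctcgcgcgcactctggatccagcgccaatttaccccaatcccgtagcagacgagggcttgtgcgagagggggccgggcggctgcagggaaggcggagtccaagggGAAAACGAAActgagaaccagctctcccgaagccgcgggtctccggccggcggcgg
IRF9: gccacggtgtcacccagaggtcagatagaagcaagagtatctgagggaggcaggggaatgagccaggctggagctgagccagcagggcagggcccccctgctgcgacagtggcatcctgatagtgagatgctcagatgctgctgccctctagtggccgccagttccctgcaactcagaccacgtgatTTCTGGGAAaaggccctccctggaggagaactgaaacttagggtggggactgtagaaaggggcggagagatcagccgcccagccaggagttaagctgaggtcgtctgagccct
IRF1: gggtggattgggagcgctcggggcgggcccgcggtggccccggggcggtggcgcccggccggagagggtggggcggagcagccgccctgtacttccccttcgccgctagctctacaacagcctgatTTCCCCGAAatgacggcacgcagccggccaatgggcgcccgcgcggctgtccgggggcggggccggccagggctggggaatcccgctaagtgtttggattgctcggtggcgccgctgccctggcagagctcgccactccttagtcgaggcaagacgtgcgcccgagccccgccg

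The response element core matched in the windows of all 3 sensors, and in 3.57% of the 35116 windows in the RefSeq table. IFIH1 held 3 matches, the first pair overlapping between positions -159 and -144 from the start and the other at -21 to -12. In EIF2AK2 the match ran from -6 to 4 and in TLR3 from -4 to 6, across the annotated start. The gamma-activated site, present in 7.66% of all windows, matched at -63 to -55 in IRF9, at -124 to -116 in IRF1, at -218 to -210 in IFNB1 and in 2 places in TLR3. The NF-kB motif as spelled here, in 1.91% of all windows, matched in IFIH1 alone, at -76 to -67. Related spellings were not searched, such as gggaaattcc in the IFNB1 window and ggggaatccc in that of IRF1. The response element core was likewise searched with 1 spacing only, which passes over gaaaactgaaa in the IFNB1 window. A window without a match may therefore still hold an NF-kB site or a related interferon response element. The windows of IFNAR1 and STAT2 held no match to any of the motifs searched. A match is a string of letters, and no binding was measured here.

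**Figure D1:**
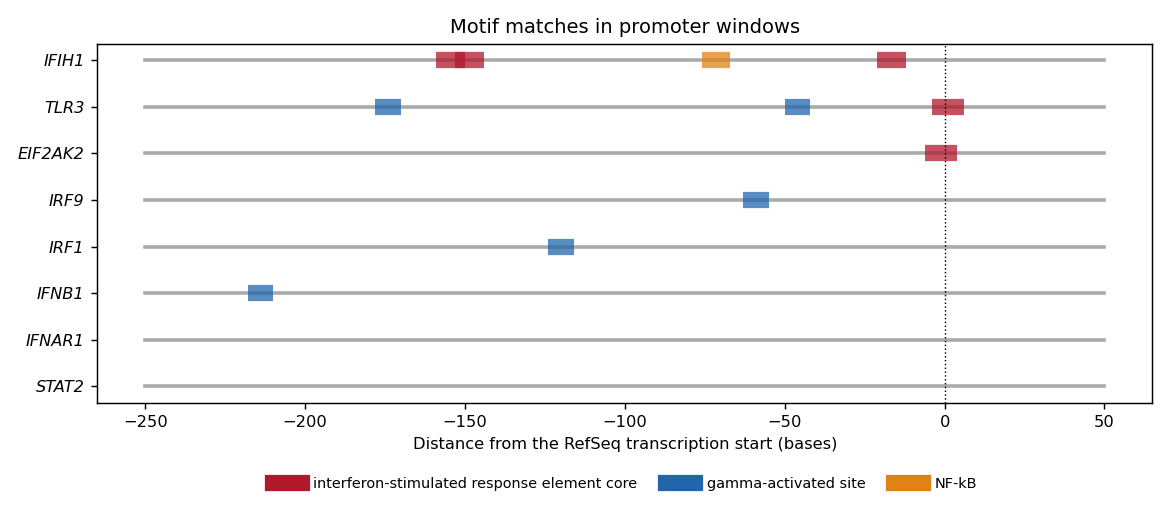
Matches to 3 motifs (coloured blocks) along the promoter windows of 8 members, with the distance from the RefSeq transcription start in bases on the x axis and a dotted line at the start. The windows of IFIH1, TLR3 and EIF2AK2 hold the interferon-stimulated response element core as spelled in the text, and those of TLR3, IRF9, IRF1 and IFNB1 hold a gamma-activated site. Both IFNAR1 windows, drawn as 1 line, are empty. Related spellings are not drawn.

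Most of these genes were higher after overexpression of either isoform, and higher with ΔNp63α than with TAp63γ. With ΔNp63α, 6 of the 8 measured members rose, while 12.3% of all 11963 genes were called higher and 16.6% lower (28.9% in either direction). With TAp63γ the same 6 members rose, and the background was 20.5% of all genes called higher and 22.8% lower (43.4% in either direction). Set directly against TAp63γ, ΔNp63α gave higher levels of these 6 genes, with 19.2% of all genes called higher and 20.6% lower (39.8% in either direction). The median log2 change of the 8 members was 1.12 with ΔNp63α, 0.67 with TAp63γ and 0.49 between the isoforms, beside medians over all genes of 0.00, -0.02 and 0.02. Both isoforms were set against the same 3 vector arrays, so their changes are not independent. A gene was called where its Benjamini-Hochberg adjusted p over all genes, from a limma fit to all 15 arrays, was under 0.05. Levels are log2 values made by RMA, and changes are log2 fold changes ± SE.

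Before single genes are described, some properties of the arrays matter. Basal epithelial markers such as KRT5 lay above the 20th percentile of every array (8 of 8 measured). Their mean level was 11.92 to 12.12 with ΔNp63α, 12.20 to 12.37 with TAp63γ and 11.67 to 11.94 with the vector, and 4 markers were called higher and 2 lower with each isoform. With shDBD it was 11.30 to 11.33, below the 12.04 to 12.12 of the shRNA vector, with 5 of 8 markers called lower and a median change of -0.77, and with shTA it was 11.95 to 12.05. Immune markers differed in level over the 15 arrays, from MS4A1 at percentiles of 10.5 to 25.2 and PTPRC at 23.4 to 30.1 to CSF1R at 32.3 to 71.3 and CD14 at 69.3 to 90.9. The mean level of all 16 measured immune markers ranged from 5.87 to 5.91 with ΔNp63α, from 5.83 to 5.90 with TAp63γ and from 5.89 to 5.90 with the vector, so these ranges overlapped, and 1 marker was called higher and 1 lower with each isoform. The immune mean was 6.65 to 6.67 with shDBD, 6.52 to 6.57 with shTA and 6.47 to 6.61 with the shRNA vector, so that both shDBD arrays lay above the vector arrays, with 2 of 16 markers called higher. The mean of 8 fibroblast markers was 6.79 to 6.87 with shDBD, 6.6 to 6.67 with shTA and 6.52 to 6.55 with the shRNA vector, again without overlap, with 1 marker called higher with each hairpin. Of all genes, 11.1% were called higher with shDBD and 1.44% with shTA. The immune and fibroblast counts with shDBD were thus near the share of all genes. The mean of 6 endothelial markers was 6.52 to 6.56 with shDBD and 6.43 to 6.53 with the shRNA vector. These ranges overlapped, and 2 of the 6 were called higher with shDBD. Deviations from the group means correlated between overexpression vector replicate 1, ΔNp63α replicate 3 and TAp63γ replicate 2, with r of 0.55 to 0.68 over genes. Those of overexpression vector replicate 2, ΔNp63α replicate 1 and TAp63γ replicate 1 also correlated with each other, with r of 0.45 to 0.63. Without the first 3 arrays, an alternative chosen after seeing the data, the same numbers of members were called, 6 in each of the 3 comparisons, and the furthest shift among the 6 called genes against the vector was that of IRF1 with ΔNp63α, 1.2 without them and 1.08 with them.

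Among the sensors, IFIH1 (MDA5), a cytosolic helicase that binds long double-stranded RNA, had levels of 9.66, 9.86 and 10.05 with ΔNp63α, 7.79, 8.45 and 8.17 with TAp63γ, and 7.61, 7.23 and 7.16 with the vector. No array of one group overlapped with another group, although the lowest TAp63γ array lay close to the highest vector array. IFIH1 was 5.75-fold higher with ΔNp63α than with the vector (2.52 ± 0.15, limma adjusted p = 6.21e-09) and 1.75-fold higher with TAp63γ (0.81 ± 0.15, adjusted p = 4.05e-04). Between the isoforms it differed by 1.72 ± 0.15 (adjusted p = 3.69e-07). A second IFIH1 probe set, with a mean level of 4.08 and thus near the bottom of the scale, changed less with ΔNp63α (0.36 ± 0.11, adjusted p over all probe sets = 0.023) and did not pass with TAp63γ (0.12 ± 0.11, 0.421). Averaging both probe sets gave changes of 1.44 with ΔNp63α, 0.46 with TAp63γ and 0.98 between the isoforms, all still called.

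EIF2AK2 encodes PKR, a kinase that double-stranded RNA activates and that halts translation by phosphorylating the initiation factor eIF2α. Its arrays read 10.11, 10.11 and 10.14 with ΔNp63α, 9.41, 9.42 and 9.42 with TAp63γ, and 9.20, 9.07 and 9.19 with the vector. The 3 groups formed separate bands, with the TAp63γ arrays nearer to the vector. The change was 0.97 ± 0.07 with ΔNp63α (1.95-fold, adjusted p = 3.11e-08) and 0.26 ± 0.07 with TAp63γ (1.2-fold, adjusted p = 0.00419). In the probe set read here, the suffix x_at marks probes that may also match other transcripts. The other EIF2AK2 probe set, with a mean level of 8.95 against 9.08, gave 1.71 ± 0.10 with ΔNp63α, 0.35 ± 0.10 with TAp63γ and 1.36 ± 0.10 between the isoforms, against 0.70 ± 0.07 for the set read here. The size of the ΔNp63α change and of the isoform difference thus depended on the probe set by over 1.5 times.

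TLR3, the endosomal receptor for double-stranded RNA, had levels of 8.05, 8.06 and 8.43 with ΔNp63α, 7.44, 7.65 and 7.57 with TAp63γ, and 7.25, 6.79 and 7.01 with the vector. Again the groups did not overlap and the TAp63γ arrays lay between the other two groups. TLR3 rose by 1.17 ± 0.12 with ΔNp63α (2.24-fold, adjusted p = 2.93e-06) and by 0.53 ± 0.12 with TAp63γ (1.45-fold, adjusted p = 0.00199), and the isoforms differed by 0.63 ± 0.12 (adjusted p = 6.58e-04).

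**Figure D2:**
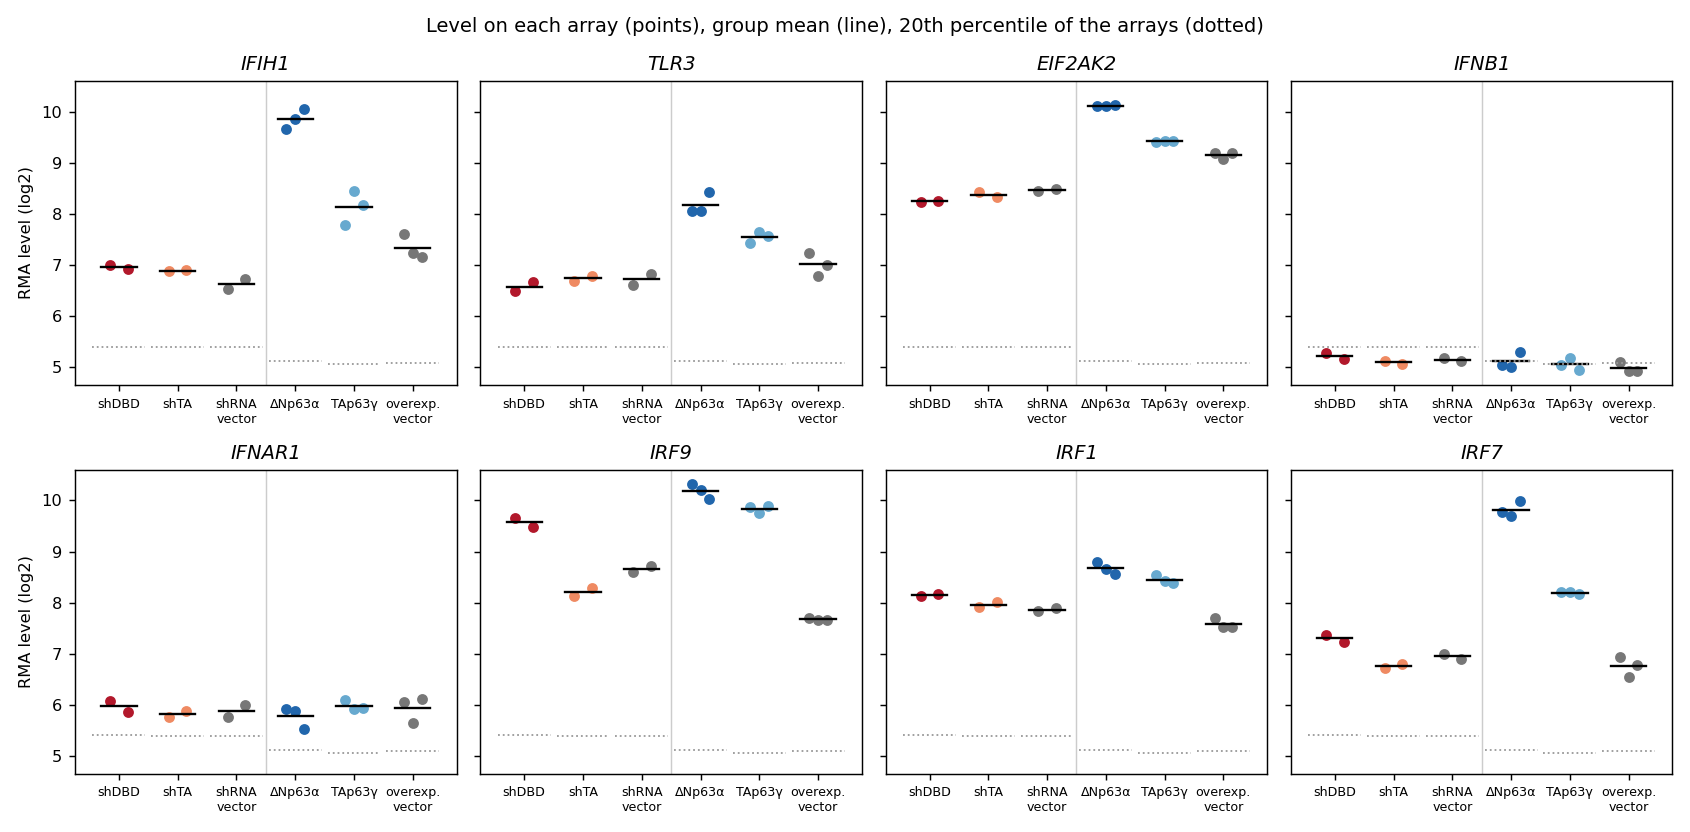
RMA level (log2, y axis) of 8 genes on each of 15 arrays (points) in 6 groups (x axis), with the group mean as a line and the mean 20th percentile of the group's arrays as a dotted line. IRF7, IFIH1, IRF9, IRF1, TLR3 and EIF2AK2 stand in the order ΔNp63α, TAp63γ, vector, IFNB1 stays near the dotted line, and IRF9 is high with shDBD.

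IFNB1, the gene for interferon β, was near background on every array. It read 5.05, 5.01 and 5.31 with ΔNp63α, 5.05, 5.19 and 4.95 with TAp63γ, and 5.12, 4.93 and 4.93 with the vector, and lay above the 20th percentile of its array on 3 of 15 arrays. All groups overlapped in the overexpression arm. The change was 0.13 ± 0.09 with ΔNp63α (95% interval -0.05 to 0.32, adjusted p = 0.299) and 0.07 ± 0.09 with TAp63γ (-0.11 to 0.26, adjusted p = 0.549). At such a level the array gives no reading of whether the transcript was present.

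IFNAR1, the receptor chain that pairs with IFNAR2, was also low, with levels of 5.92, 5.88 and 5.54 with ΔNp63α, 6.10, 5.92 and 5.94 with TAp63γ, and 6.05, 5.64 and 6.12 with the vector. The arrays of all 3 groups overlapped. Neither isoform gave a change that passed (-0.16 ± 0.13, 95% interval -0.43 to 0.12, and 0.05 ± 0.13, -0.22 to 0.32), nor did the direct difference of -0.21 ± 0.13 (-0.48 to 0.06).

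IRF7, a factor that drives interferon α genes and is itself interferon-stimulated, changed most of the 8 members with ΔNp63α. Levels were 9.76, 9.69 and 10.00 with ΔNp63α, 8.21, 8.21 and 8.17 with TAp63γ, and 6.94, 6.55 and 6.78 with the vector. The 3 bands were far apart compared with the spread within each. IRF7 was 8.34-fold higher with ΔNp63α (3.06 ± 0.10, adjusted p = 4.07e-12) and 2.71-fold higher with TAp63γ (1.44 ± 0.10, adjusted p = 1.22e-08), and the isoforms differed by 1.62 ± 0.10 (adjusted p = 6.72e-09). It ranked 26th of 11963 genes by its rise with ΔNp63α and 246th with TAp63γ.

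IRF9, the DNA-binding subunit of ISGF3, read 10.33, 10.20 and 10.02 with ΔNp63α, 9.86, 9.76 and 9.90 with TAp63γ, and 7.70, 7.66 and 7.67 with the vector. Both isoforms lay well above the vector and near each other, without overlap. The change was 2.51 ± 0.09 with ΔNp63α (5.68-fold, adjusted p = 9.90e-12) and 2.16 ± 0.09 with TAp63γ (4.48-fold, adjusted p = 2.62e-11), the largest of the 8 members with TAp63γ. The direct difference was 0.34 ± 0.09 (adjusted p = 0.00575).

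IRF1, an activator of interferon and antigen-presentation genes, had levels of 8.80, 8.66 and 8.55 with ΔNp63α, 8.55, 8.43 and 8.38 with TAp63γ, and 7.70, 7.53 and 7.53 with the vector. The isoforms met at 8.55, where the lowest ΔNp63α and the highest TAp63γ array agree to the decimals printed, and both stood clear of the vector. IRF1 rose by 1.08 ± 0.08 with ΔNp63α (2.12-fold, adjusted p = 1.01e-07) and by 0.86 ± 0.08 with TAp63γ (1.82-fold, adjusted p = 4.49e-07). The difference of 0.22 ± 0.08 between the isoforms passed narrowly (adjusted p = 0.047) and was lost with the arms fitted separately (0.0946) or without ΔNp63α replicate 1 (0.188) or 2 (0.0827) or TAp63γ replicate 2 (0.105) or 3 (0.157).

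Set side by side, the 6 genes fell into an order by how far ΔNp63α exceeded TAp63γ, from IFIH1 (1.72, 3.29-fold) and IRF7 (1.62, 3.08-fold) through EIF2AK2 (0.70, 1.63-fold) and TLR3 (0.63, 1.55-fold) to IRF9 (0.34, 1.27-fold) and IRF1 (0.22, 1.16-fold). The 95% intervals of neighbours overlapped for IFIH1 and IRF7, for EIF2AK2 and TLR3, and for IRF9 and IRF1. They did not overlap between IRF7 (1.41 to 1.83) and EIF2AK2 (0.56 to 0.84), whereas those of TLR3 (0.37 to 0.89) and IRF9 (0.15 to 0.53) did. This order held for the probe sets read here. With all probe sets of a gene averaged, the isoform difference was 0.98 for IFIH1 and 1.03 for EIF2AK2, which puts IRF7 first and the 2 sensors close to each other. Differences between genes were not tested.

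**Figure D3:**
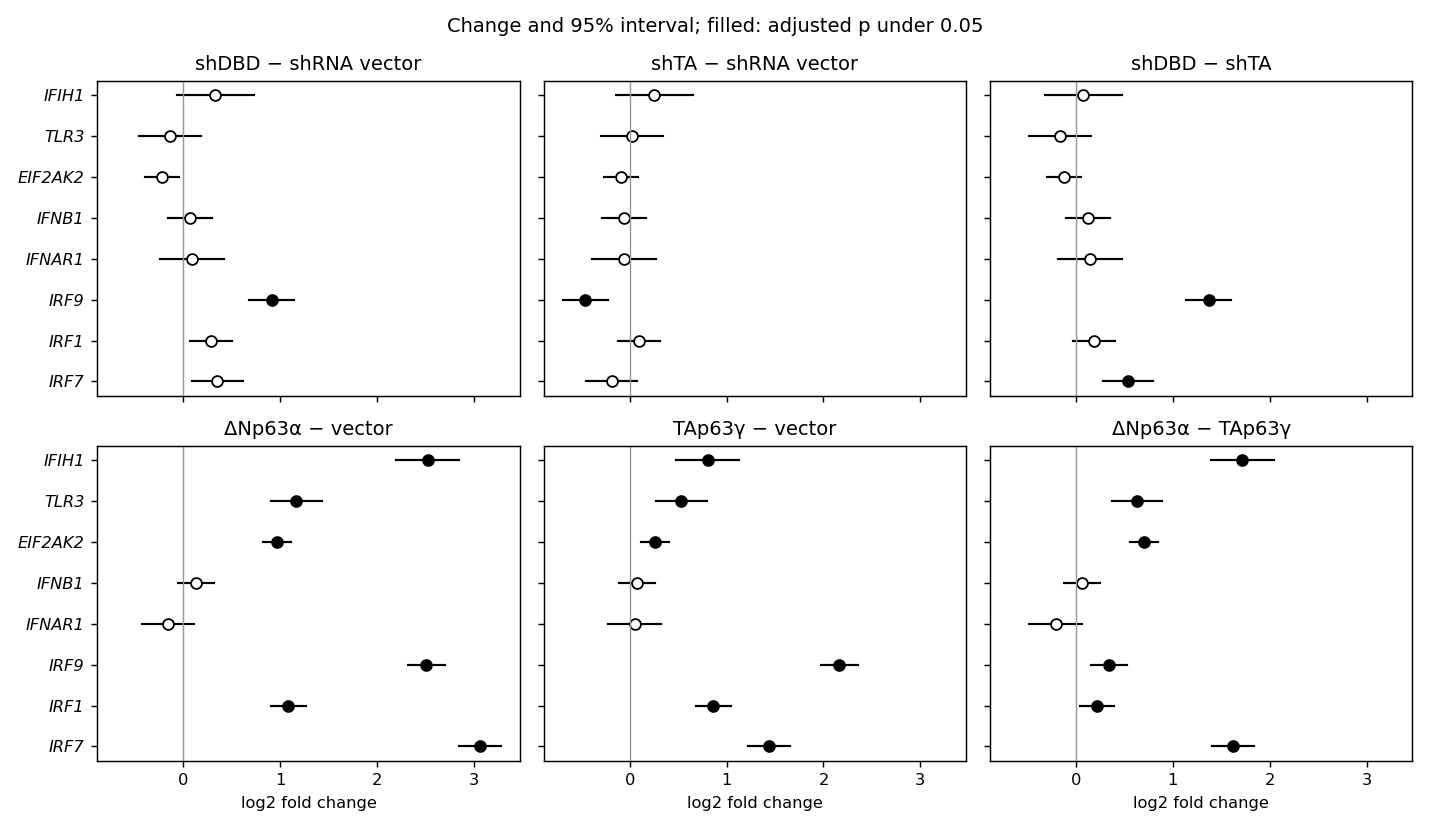
Log2 fold change (x axis) with its 95% interval for 8 genes in 6 comparisons, the first-named group minus the second, filled where the adjusted p was under 0.05. IRF9 is filled in all 6 panels, lies left of 0 with shTA alone, and is close to the ΔNp63α value with TAp63γ, while IFNB1 and IFNAR1 are open throughout.

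In the knockdown arm only IRF9 passed against the vector. With shDBD, 1 of 8 measured members was higher, beside 11.1% of all genes (21.3% in either direction). With shTA, 1 of 8 was lower, beside 0.853% of all genes (2.29% in either direction). Against shTA, shDBD gave higher levels of 2 members, beside 9.14% of all genes called higher and 9.23% lower. The share with shDBD is close to that background.

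IRF9 read 9.66 and 9.48 with shDBD, 8.12 and 8.28 with shTA, and 8.60 and 8.72 with the shRNA vector. The shDBD arrays stood highest, the shTA arrays lowest and the vector arrays between them, with no overlap. IRF9 was 1.88-fold higher with shDBD than with the vector (0.91 ± 0.11, adjusted p = 1.69e-05), 1.37-fold lower with shTA (-0.46 ± 0.11, adjusted p = 0.0394) and 2.58-fold higher with shDBD than with shTA (1.37 ± 0.11, adjusted p = 3.75e-07). Both comparisons with the vector share its 2 arrays. The shTA call was lost when any 1 of the 4 arrays compared was left out (shRNA vector replicate 1 or 2, shTA replicate 1 or 2), with adjusted p from 0.110 to 0.262. It was also lost without overexpression vector replicate 1 or 3, ΔNp63α replicate 2 or TAp63γ replicate 3, which enter through the shared estimate of spread. A further probe set, annotated to IRF9 together with RNF31 and therefore not used, did not pass with shDBD (-0.13 ± 0.12, adjusted p over all probe sets = 0.549) or in the overexpression arm (-0.17 ± 0.09 with ΔNp63α and 0.02 ± 0.09 with TAp63γ).

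IRF7 read 7.37 and 7.24 with shDBD, 6.73 and 6.80 with shTA, and 6.99 and 6.91 with the vector, the same order of groups as IRF9. It differed between the hairpins (0.54 ± 0.12, 1.45-fold, adjusted p = 0.00531), a call lost without shDBD replicate 1 (0.0667) or shTA replicate 1 (0.0522). Against the vector, neither shDBD (0.35 ± 0.12, adjusted p = 0.0528) nor shTA (-0.19 ± 0.12, adjusted p = 0.587) passed. IRF1 came close with shDBD, at 8.14 and 8.17 against 7.83 and 7.90 with the vector (0.29 ± 0.10, adjusted p = 0.0568). Both IRF1 and IRF7 were called higher with shDBD under several other settings, among them arms fitted separately (adjusted p = 0.0172 and 0.00974).

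None of the 3 sensors passed against the vector. EIF2AK2 read 8.24 and 8.26 with shDBD against 8.46 and 8.48 with the vector, a difference of -0.22 ± 0.08 that did not pass (adjusted p = 0.0742), and that passed, as lower, without the variance trend (0.0467) and with values floored at the 20th percentile (0.0354). IFIH1 stood at 7.01 and 6.93 with shDBD, 6.88 and 6.90 with shTA and 6.54 and 6.73 with the vector (0.33 ± 0.19, adjusted p = 0.263, and 0.25 ± 0.19, adjusted p = 0.644), and with the arms fitted separately its shDBD change passed (0.0165). TLR3 lay between 6.49 and 6.83 on all 6 arrays, IFNAR1 between 5.76 and 6.07 and IFNB1 between 5.07 and 5.28, and no comparison of these 3 genes passed. The actin 3′ minus 5′ probe difference, a sign of RNA integrity, was 0.09 and 0.05 with shDBD and 0.00 and 0.20 with shTA against -0.09 and -0.08 with the vector, and the shDBD arrays also had the lower basal and higher immune and fibroblast marker means given above. The part of these differences in the IRF9 result was not tested. In the overexpression arm this difference overlapped between the groups (0.12 to 0.23 with ΔNp63α, 0.01 to 0.14 with TAp63γ and 0.12 to 0.23 with the vector).

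Of 24 other measured genes of interferon induction, 11 rose and 2 fell with ΔNp63α, and 10 rose and 4 fell with TAp63γ, with medians of 0.22 and 0.06. The shares called lower among all genes, 16.6% and 22.8%, were above those of this list. The shares called higher among all genes were 12.3% and 20.5%. RIGI, the sister sensor of IFIH1, rose most, by 3.84 ± 0.10 with ΔNp63α and 1.43 ± 0.10 with TAp63γ (adjusted p = 1.78e-13 and 9.34e-09). The OAS-like antiviral gene OASL rose by 2.26 ± 0.20 and 1.18 ± 0.20, and the Toll-like receptor adaptor MYD88 by 1.05 ± 0.09 and 1.33 ± 0.09. Some genes were lower with ΔNp63α than with TAp63γ, and others higher. TBK1, the kinase that activates IRF3 and IRF7, was lower with TAp63γ than with the vector (-0.94 ± 0.09, adjusted p = 3.80e-07), while its relative IKBKE was higher (1.29 ± 0.09), and ΔNp63α exceeded TAp63γ in TBK1 by 1.03 ± 0.09 but fell below it in IKBKE (-0.68 ± 0.09). The TLR3 adaptor TICAM1 was likewise lower with ΔNp63α than with TAp63γ (-0.57 ± 0.08), though both isoforms raised it against the vector (0.46 ± 0.08 and 1.03 ± 0.08). Against the vector, ΔNp63α also raised IKBKE (0.61 ± 0.09), while TBK1 did not pass with it (0.09 ± 0.09, adjusted p = 0.547). MAVS, the adaptor downstream of IFIH1 and RIGI, fell with ΔNp63α (-0.54 ± 0.12, adjusted p = 0.00257).

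Of 18 other measured signalling genes, 8 rose with each isoform, 3 fell with ΔNp63α and 4 fell with TAp63γ, the falls being near the all-gene shares of 16.6% and 22.8%. The all-gene shares called higher were 12.3% and 20.5%. The median changes were 0.26 and 0.18. USP18, which dampens signalling at the interferon receptor, rose by 2.33 ± 0.11 with ΔNp63α and 1.64 ± 0.11 with TAp63γ, and the inhibitor SOCS1 by 0.79 ± 0.10 with each. The receptor kinase TYK2 rose by 0.40 ± 0.11 and 0.80 ± 0.11, whereas JAK1 fell by 0.38 ± 0.09 with ΔNp63α and by 0.37 ± 0.09 with TAp63γ. The receptor chain IFNAR2 was higher with TAp63γ (0.68 ± 0.11, adjusted p = 7.99e-05) and did not pass with ΔNp63α (0.16 ± 0.11, adjusted p = 0.302), and the direct difference passed (-0.51 ± 0.11, adjusted p = 0.00119). STAT3, which mediates interleukin-6 signals, was higher with TAp63γ (1.23 ± 0.10) and lower with ΔNp63α than with TAp63γ (-1.21 ± 0.10, adjusted p = 1.28e-07). The IFN-γ receptor chain IFNGR2 showed the reverse, rising with ΔNp63α (0.92 ± 0.07) and standing 0.86 ± 0.07 above TAp63γ.

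Among 31 interferon effectors, 31 rose with ΔNp63α and 28 with TAp63γ, with medians of 2.68 and 1.47, and 26 were higher with ΔNp63α than with TAp63γ. Of all genes, 12.3%, 20.5% and 19.2% were called higher in these comparisons. IFI27 rose by 5.43 ± 0.09 with ΔNp63α and 5.06 ± 0.09 with TAp63γ, whereas IFITM1 was 3.33 ± 0.10 higher with ΔNp63α than with TAp63γ. With shDBD, 15 effectors rose, led by IFIT1 (2.83 ± 0.19), IFI44L (1.68 ± 0.12) and RSAD2 (1.61 ± 0.19). Another 2 fell, among them OAS3 (-0.72 ± 0.23, adjusted p = 0.0334). Of all genes, 11.1% were called higher and 10.2% lower with shDBD, so the share of falls was below the background. With shTA, 1 of 31 effectors passed, GBP2 (0.50 ± 0.12, adjusted p = 0.0407), beside 1.44% of all genes called higher. Of the 24 other induction genes, 2 rose with shDBD, RIGI (0.56 ± 0.12) and MYD88 (0.52 ± 0.11). As many fell, IFI16 (-0.94 ± 0.11) and IRF5 (-0.49 ± 0.12). Neither share was above that of all genes with shDBD (11.1% higher and 10.2% lower). Of the 18 other signalling genes, 2 rose with shDBD, PIAS1 (0.71 ± 0.10) and STAT3 (0.60 ± 0.12, adjusted p = 0.00162). IFNGR2 alone fell (-0.39 ± 0.09, adjusted p = 0.0057). These shares too were not clearly above those of all genes. With shTA, 1 of the 18 rose, IFNGR1 (0.70 ± 0.14, adjusted p = 0.0128), beside 1.44% of all genes called higher.

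**Figure D4:**
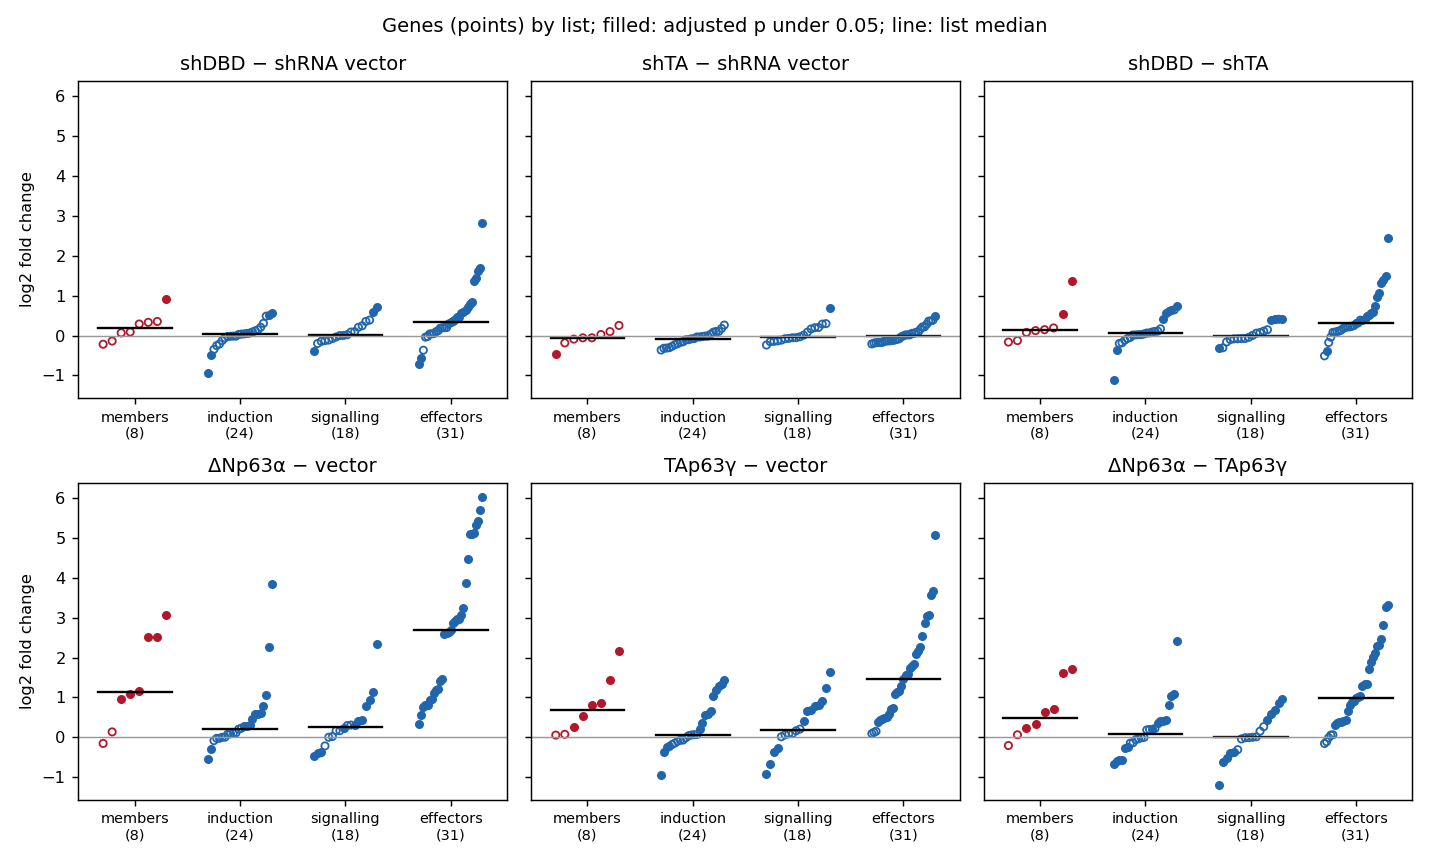
Log2 fold change (y axis) of each gene (points) in 4 lists (x axis, number of measured genes in brackets) and 6 comparisons, filled where the adjusted p was under 0.05, with the list median as a line. Effectors reach 6.02 with ΔNp63α and 5.06 with TAp63γ, and the 18 signalling genes spread on both sides of 0.

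Over the 15 arrays, after the mean of each arm was subtracted, the members other than IFNB1 and IFNAR1 formed 2 overlapping patterns. These are described by Pearson's r over arrays that share groups and normalization. IFIH1, TLR3, EIF2AK2 and IRF7 correlated with each other at 0.93 to 0.96. IRF1 and IRF9 correlated at 0.95 with each other, and IRF9 less with EIF2AK2 (0.66), TLR3 (0.72) and IFIH1 (0.75). IRF1 lay closer to these sensors, at 0.75 with EIF2AK2, 0.81 with TLR3 and 0.82 with IFIH1. IRF7 stood between, at 0.91 with IRF1 and 0.88 with IRF9. Outside the set, the genes most like IFIH1 were DDX60 (0.99), RIGI (0.98) and NMI (0.97). Those most like IRF7 were IFI44 (0.99), RIGI (0.99) and ISG15 (0.98). For IRF9 they were TAP1, HLA-G and HLA-C (0.98 each), genes of antigen presentation by MHC class I. For IRF1 they were HERC6 and IFI27 (0.98 each) and HLA-C (0.97). TLR3 was closest to CD58, BCL10 and CCNG2 (0.97, 0.97 and 0.96), and EIF2AK2 to STK17B, BLNK and DDX60 (0.98, 0.97 and 0.96). IFNB1 and IFNAR1, which passed in no comparison, reached 0.84 (NR4A3) and 0.83 (RBFOX1) at most.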

How the data were processed

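Total RNA of MCF-10A cells was labelled with biotin and hybridized, per the labels' protocols, giving 15 arrays. The deposited values are log2 levels of 22277 probe sets computed by the authors using RMA, according to the submitters' processing notes. Its version and settings: not given in the sources used here. RMA gives arrays a common distribution, which hides a shift shared by most transcripts, and small signals show compressed differences. Array medians were 7.19 to 7.21 in the knockdown arm and 6.95 to 6.98 in the overexpression arm, so levels were compared within an arm only. Probe sets with 1 symbol (19064) gave 11963 genes.

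limma 3.58.1 in R 4.3.3 was fitted to all 15 arrays with a mean per group (9 residual degrees of freedom, variance trend), two-sided, with Benjamini-Hochberg adjustment over all genes at 0.05. The fit was tested on simulated data. Array number limits the precision. Members, lists, motifs and the naming rule (all members, any other induction or signalling gene, up to 3 called effectors per direction, and the 3 genes most correlated with each member) were chosen with earlier results of these data known. Alternatives covered variance trend, separate arms, normalization, low levels, probe sets, single arrays and replicate number. Replicate numbers did not pair the arrays. The planned protein comparison was not made.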

Additional observations from a re-analysis of the deposited data

How the results depend on the processing

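In the overexpression arm the 6 called members kept their direction and their side of the threshold against the vector under every alternative run. Over all comparisons, 11 of 648 member values changed sign under an alternative (values of EIF2AK2, TLR3, IFNAR1 and IFNB1), and none of these was called. The counts of members called with shDBD, 1 as reported, were 4 without the variance trend or with the arms fitted separately, 3 with quantile normalization, the low-level filter or the mean of all probe sets, 2 with cyclic loess, values floored at the 20th percentile or the replicate block, and 1 to 3 without 1 array (3 without ΔNp63α replicate 3, 2 without overexpression vector replicate 1 or 2, ΔNp63α replicate 1 or 2, or TAp63γ replicate 1). For shTA the member count was 0 with the replicate block (limma adjusted p of IRF9 = 0.1, 1 member at unadjusted p under 0.05) and 0 to 1 without 1 array (0 without any shRNA vector or shTA array, overexpression vector replicate 1 or 3, ΔNp63α replicate 2 or TAp63γ replicate 3), and the gene count, 274 as reported, was 1064 with the arms fitted separately, 150 with the replicate block and 87 to 472 without 1 array (leaving out shRNA vector replicate 1 gave 90 and replicate 2 gave 95, shTA replicate 1 gave 131 and replicate 2 gave 87, ΔNp63α replicate 3 gave 472). Between the hairpins, 2 members and 2197 genes were called; without 1 array these counts were 1 to 2 (1 without shDBD replicate 1 or shTA replicate 1) and 1348 to 2588 (1348 without shDBD replicate 1, 1463 without shTA replicate 2), and 3359 genes with the arms fitted separately. For shDBD, 2543 genes became 1650 to 2968 without 1 array, the lowest without shRNA vector replicate 1. Between the isoforms, 6 members were called, 5 with the arms fitted separately and 5 to 6 without 1 array. Deviations of same-numbered arrays correlated at 0.00 to 0.07 in the knockdown arm and -0.63 to 0.48 in the overexpression arm, and arrays did not all correlate best with their own number. The cause of these changes was not tested. IFNB1 and a second IFIH1 probe set lay near background, which limits what their changes show.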
